A study of Mus musculus with 6 samples.

Results

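CD24+CD29lo mammary cells from virgin ΔNp63 heterozygous mice were compared with the same sorted population from virgin wild-type mice, 1 array against 1 array out of 6 arrays in the series. All 41174 non-control probes of both arrays entered, standing for 27669 genes. Of these, 24305 genes were measured, meaning that their probe was well above background in the sample channel (Cy5) on at least 1 of the 2 arrays. The mice were of strain C57/B6 and carried either 2 wild-type copies of the gene or 1 knockout allele, labelled DNP63 KO heterozygous; these sorted cells, labelled P5 and described as enriched for luminal progenitors, are called WT P5 and het P5 here. The other arrays hold P4 cells (CD24+CD29hi, described as enriched for mammary stem cells) and total mammary epithelial cells (MEC), again 1 array for each genotype. Cy3 marked the same universal mouse reference on all arrays, an RNA pooled from 11 cell lines. Age and the number of mice behind an array are not given in the sources used here, and nothing in the labels marks an array as a pool. With 1 array a group no test of a difference between genotypes is possible, so no p-value is given and every value below describes these 2 arrays.

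The gene Trp63 makes transcripts from separate promoters, giving TAp63 proteins with an N-terminal transactivation domain and ΔNp63 proteins without it. ΔNp63 is the form of basal cells in stratified and glandular epithelia, where it maintains basal identity. In the mammary gland CD29, the integrin beta 1 chain, is high on basal cells and lower on luminal cells, and the CD29lo luminal compartment holds both hormone-receptor-negative progenitors and hormone-sensing cells. R-spondins and Wnt ligands are among the signals that pass between these compartments.

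Values are log2 ratios of sample over reference, and a difference is het P5 minus WT P5 on that scale, so that 1 is a 2-fold difference. Across the 24305 genes the ratios of both arrays correlated with r = 0.92, the median difference was 0.07 and the SD of the differences was 0.40. The only repeat measurements are 245 probes printed 10 times on each array, which gave an SD of 0.13 for the difference of single spots. This SD holds the spread of spots within an array only. The error between arrays and the spread between animals are unknown. WT P5 had 86.0% and het P5 82.7% of spots well above background, with a median Cy5 signal of 158 and 114. WT P5 had 17 Cy5 and 11 Cy3 spots whose local background lay more than 1.5-fold from that of the surrounding spots, and het P5 had none. Differences were therefore also computed with those backgrounds replaced. Background correction and normalization were then repeated over each whole array, so values of genes away from those spots could move too. The difference of Elf5, with Cy5 backgrounds of 38 in WT P5 and 36 in het P5, went from 1.60 to 1.02. The barcodes in the file headers end in 1 and 2 for WT P4 and WT P5 and in 3 and 4 for het P4 and het P5 on the same slide, so genotype and position on the slide cannot be told apart.

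Both arrays carried luminal RNA. The ratio of the luminal keratin gene Krt8 was 5.42 in WT P5 and 4.68 in het P5, and that of Epcam, an epithelial adhesion gene, was 4.09 and 3.74. The progenitor transcription factor gene Elf5 stood at 4.97 and 6.56, and Esr1, the estrogen receptor of hormone-sensing cells, at 3.77 and 3.22, so genes of both luminal branches were above the reference on each array. Itga2, another progenitor marker, was near the reference on both (0.19 and -0.17). The smooth muscle actin gene Acta2 was at -1.54 and -0.91 in P5 against 4.25 and 4.50 in WT and het P4, and Trp63 was at 0.46 and 0.89 in P5 against 4.41 and 5.29 in P4. Both basal genes were thus lower on the P5 arrays than on the P4 arrays of either genotype.

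The heterozygous allele itself could not be read from these probes. Trp63 is represented by 3 probes, none of which separates the ΔN from the TA transcripts, and no source used here says which part of the gene the knockout removes. Of the probes, the one shown in full below lies in the stretch that codes for the DNA-binding domain, which both transcript classes contain, at chr16:25526842-25527619 on the plus strand. Its genomic span exceeds its 60 bases, so it crosses an intron. All positions are those of the mouse build mm7 given in the file headers, the letters are the deposited probe sequence in the sense of the transcript, and lower case is used throughout because no base is singled out.

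Trp63, DNA-binding domain: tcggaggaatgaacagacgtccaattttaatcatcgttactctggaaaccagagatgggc

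This probe was not well above background on either P5 array. The brightest Trp63 probe, at chr16:25553466-25553525, had a ratio of 0.46 in WT P5 and 0.89 in het P5, a difference of 0.43 that came to 0.35 with outlying backgrounds replaced and 0.35 by the scanner software's own log ratio. The remaining probe differed by 0.19. With this processing Trp63 was not lower in het P5 by any probe well above background on both arrays, and this checks neither the genotype nor the ΔN transcript. Around the gene, 73 measured genes had probes within 5 Mb, and 4 of them were at least 2-fold higher and 3 at least 2-fold lower in het P5, where 2.59% and 0.551% of all measured genes were.

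Of the 24305 genes, 630 (2.59%) were at least 2-fold higher in het P5 and 134 (0.551%) at least 2-fold lower. With outlying backgrounds replaced the counts were 566 (2.33%) and 224 (0.922%), and by the scanner software's log ratio 1059 (4.36%) and 728 (3%). Among the 23016 genes well above background on both arrays, 496 (2.16%) were at least 2-fold higher and 129 (0.56%) at least 2-fold lower under all 3 of these processings. The split between directions depended on the scaling. Of the genes at least 2-fold apart, 82.5% were higher with loess, 71.6% with outlying backgrounds replaced, 73.0% without background subtraction, 59.3% by the scanner software, 70.2% from the Cy5 channel alone and 9.84% with median centring, which moved the median of all genes from 0.07 to -0.22 and gave 227 higher and 2080 lower genes. Just inside the 2-fold limit lay Slit3 (1.002) above and Tec (-1.002) below, and just outside it Eaf2 (0.999) and Anxa7 (-0.996).

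**Figure D1:**
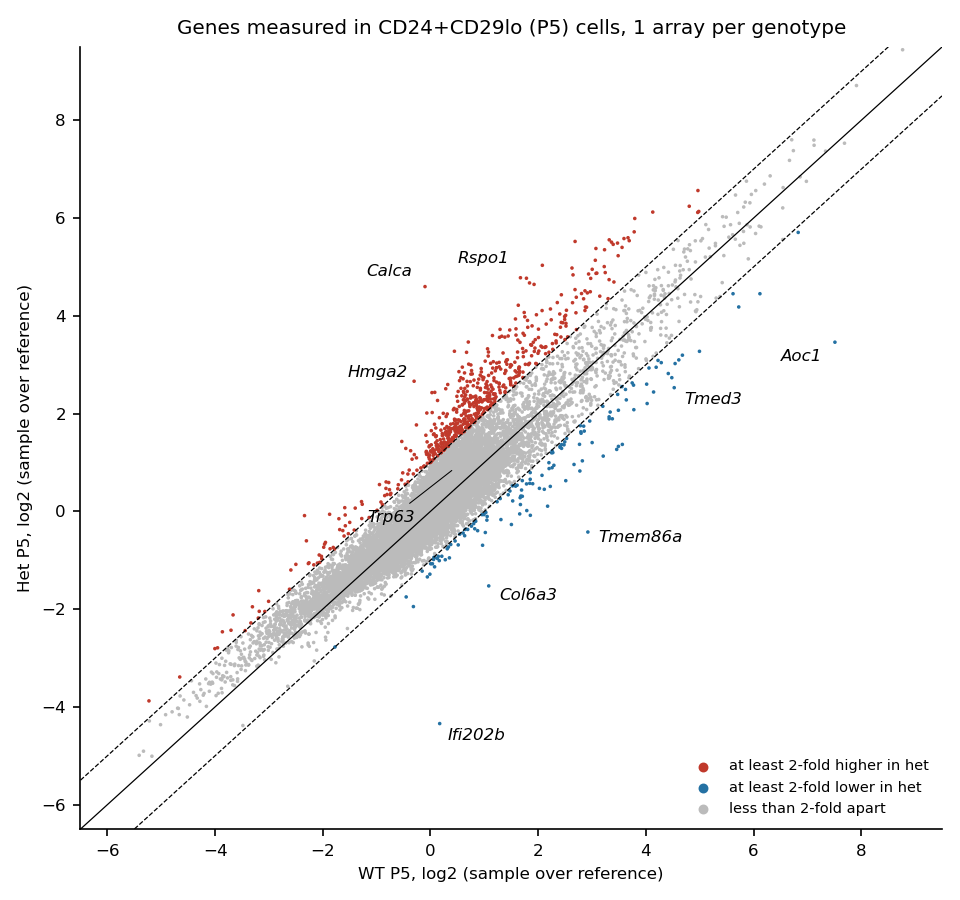
Log2 ratio of sample over reference in WT P5 (horizontal axis) and het P5 (vertical axis), 1 point per measured gene, with the line of equal ratio solid and the 2-fold limits dashed. Calca, Rspo1 and Hmga2 lie above the upper limit, Ifi202b, Aoc1, Tmem86a, Col6a3 and Tmed3 below the lower limit, and Trp63 (0.46 and 0.89) between them.

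The most different genes are shown first by their probes and genomic positions. The place of these probes within their transcripts was not determined. Each probe has 60 bases and the first 30 are printed.

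Calca, variant 1, chr7:110549383-110549442, minus strand: ggcagtcatctggcttcctagtagagcttc

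Calca, variant 2, chr7:110547755-110547814, minus strand: tattgtgcatcgtgttgtatgtgactctgt

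Rspo1, chr4:124453673-124453732, plus strand: ccgtggtacacgtcacggatgacctgactt

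Hmga2, brightest probe, chr10:119756830-119756889, minus strand: ttttcagtgacactactttgtatcacacac

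Ifi202b, chr1:173928807-173929836, minus strand: attgacctcaaatgcagatgagtggtttct

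Aoc1, chr6:48869166-48869225, plus strand: ttgtctcacctcaacgatgggcaggagtaa

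Tmem86a, chr7:43230694-43230753, plus strand: ctatatgtctttgtcctactgtctgcaaaa

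Calca and Rspo1, both genes of secreted signals, headed the 12 highest named genes. Calca encodes calcitonin and, by alternative splicing, the alpha form of calcitonin gene-related peptide. Its variant 1 probe was at -0.10 in WT P5 and 4.60 in het P5, a difference of 4.70 or 26.0-fold, and raw Cy5 signals of 179 and 3441. The variant 2 probe was at 0.07 and 1.22, a difference of 1.15, or 2.59 by the scanner software. It was dim, with raw Cy5 signals of 67 and 116 over a background of 36 on each array. Both Calca probes thus had a ratio near 0 in WT P5 and above it in het P5, the variant 2 probe from a dim signal. In P4 the variant 1 difference was 1.02 (0.03 to 1.05), and in MEC it had the opposite sign, -4.20 (4.18 in WT, -0.01 in het). Each of the 3 differences rests on its own 2 arrays.

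Rspo1 encodes R-spondin 1, a secreted enhancer of Wnt signalling that acts through Lgr receptors and the membrane ligases Rnf43 and Znrf3. Its ratio was 1.67 in WT P5 and 4.78 in het P5, a difference of 3.11 (2.71 with outlying backgrounds replaced). The other 8 members of the list of R-spondins, Lgr receptors and ligases differed by 0.03 (Rspo2) to 0.54 (Rnf43). Rspo1 was also higher in het P4, by 2.11 (0.84 to 2.95; 0.76 with outlying backgrounds replaced), and lower in het MEC, at 1.90 against 3.63. Rspo1 was therefore at least 2-fold apart where its list was not.

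Hmga2 encodes an architectural chromatin protein of embryonic and proliferating cells that is a target of the let-7 microRNAs. Its brightest probe was at -0.30 in WT P5 and 2.66 in het P5, a difference of 2.97, and its next probe, designed to a cDNA clone assigned to Hmga2, at 0.17 and 1.27, a difference of 1.10. The third probe, designed to the Hmga2 transcript like the first, was at -3.22 and -2.99, a difference of 0.23. The Hmga2 probes thus gave unequal differences. The difference of the brightest probe was as large in P4 (2.97, from 0.65 to 3.62) and 0.32 in MEC. Among the 15 measured members of the list of Hmga genes, let-7 axis and Polycomb genes, Hmga2 alone was at least 2-fold apart; Hmga1 differed by 0.37 and Bmi1, a Polycomb repressor of Cdkn2a, by -0.37.

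The rest of the 12 highest named genes are best known from unlike settings. Cldn15, a pore-forming claudin of intestinal tight junctions, was at 1.78 and 4.77 (difference 2.99). Proz, the vitamin K-dependent protein Z, was at 2.08 and 5.03 (2.96), and Ugt2b34, a glucuronosyltransferase of a family with near-identical copies, at 2.69 and 5.52 (2.84). Nlrp6 and Nlrp2, members of the NOD-like receptor family, differed by 2.58 and 2.43. Other probes well above background differed by 0.47 for Proz and 0.25 for Nlrp6. Npffr2, a receptor of neuropeptide FF, differed by 2.45 (its other probe by -0.29), the olfactory receptor gene Olfr821 by 2.59, and the less characterised Fam219aos and D6Ertd527e by 2.72 and 2.40. None of these genes is on a list described below. All 12 were higher in het P4 too, by 1.02 (Calca) to 3.95 (Proz), though Rspo1 by 0.76 with outlying backgrounds replaced. In MEC Ugt2b34 alone of them was at least 2-fold higher (1.15), and it came to 0.95 with outlying backgrounds replaced.

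Ifi202b and Aoc1 led the lower side. Ifi202b, an interferon-inducible gene of the p200 family whose expression is known to differ between inbred mouse strains, was at 0.17 in WT P5 and -4.34 in het P5, a difference of -4.51, with raw Cy5 signals of 10858 and 248. It was lower in het P4 too, with a difference of -1.42 (-0.64 and -2.06), and at -2.46 and -2.98 in MEC. The gene has close copies in its family, which the probe may also read. Aoc1, the diamine oxidase that degrades histamine and putrescine, was at 7.51 and 3.46, a difference of -4.05 (-4.40 with outlying backgrounds replaced, -2.63 by the scanner software). Aoc1 was lower in het P4 as well, with a difference of -2.10 (-4.38 with outlying backgrounds replaced), and higher in het MEC by 3.49 (2.31).

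Tmem86a, a lysoplasmalogenase, was at 2.92 in WT P5 and -0.42 in het P5, a difference of -3.35. Col6a3, a chain of collagen VI, was at 1.08 and -1.53 by its brightest probe (-2.61), while its other probes differed by 0.22 and 0.13. Rasd1, a Ras-related GTPase induced by glucocorticoids, was at 3.56 and 1.37 (-2.19), and Chst8, which sulfates N-acetylgalactosamine on glycoprotein hormones, at 3.46 and 1.27 (-2.19). For Tmem86a, Rasd1 and Chst8 the WT P5 ratio was the higher, and in MEC the het array was the higher instead, for Rasd1 by 1.75, or 0.93 with outlying backgrounds replaced.

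Tmed3, a cargo receptor of the secretory pathway, was at 4.53 and 2.53 (-1.996), with a raw Cy5 signal of 251285 in WT P5. Gadd45g, a stress-inducible growth arrest gene, was at 4.02 and 2.21 (-1.82), and Dscam, a cell adhesion gene best known from neurons, at 2.77 and 0.83 (-1.95), its other probe differing by -0.20. Padi4, which converts protein arginine to citrulline, was at 2.82 and 1.03 (-1.79), and another of its probes at 2.76 and 0.90 (-1.86). The difference of its relative Padi2, named after its value was seen, was -1.71. Klk1b24, a kallikrein with many close copies, and Kcne2, a potassium channel subunit, differed by -2.07 and -1.77 and were near the reference in het P5 (0.11 and 0.02). Apart from Ifi202b, the 12 lowest genes had ratios of 1.08 (Col6a3) to 7.51 (Aoc1) in WT P5, above the reference.

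The genes at least 2-fold higher in het P5 were mostly also higher in het P4. Of the 134 genes at least 2-fold lower in het P5, 97 were below 0 in P4, where 8652 of 24284 genes were. Their median P4 difference was -0.15, against 0.11 over all genes. These comparisons use different arrays with the same reference RNA, and P4 and P5 share a slide. Of the 630 higher genes, 520 (82.5%) were at least 2-fold higher in P4, where 6.04% of all genes measured in P5 were; they make up 35.4% of the 1467 such P4 genes. With outlying backgrounds replaced in P4, 443 of the 630 (70.3%) were, where 3.64% of all genes were. In MEC 26 of 628 (4.14%) were at least 2-fold higher, where 2.06% of all genes were, and 9 (1.43%) at least 2-fold lower, where 0.69% were. With outlying backgrounds replaced in MEC the balance turned round, to 9 higher (1.43%) and 18 lower (2.87%), where 1.21% and 1.03% of all genes were. Of the 134 lower genes, 4 (2.99%) were at least 2-fold lower in P4, where 0.0906% of all genes were, and these are 18.2% of the 22 such P4 genes. With outlying backgrounds replaced in P4, 12 of the 134 (8.96%) were, where 0.457% of all genes were. In MEC 50 of 133 (37.6%) lower genes were at least 2-fold higher in het (37 with outlying backgrounds replaced), and 1 was at least 2-fold lower. These 50 are 10.04% of the 498 genes at least 2-fold higher in het MEC. The difference between populations could not be tested with 1 array a group.

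**Figure D2:**
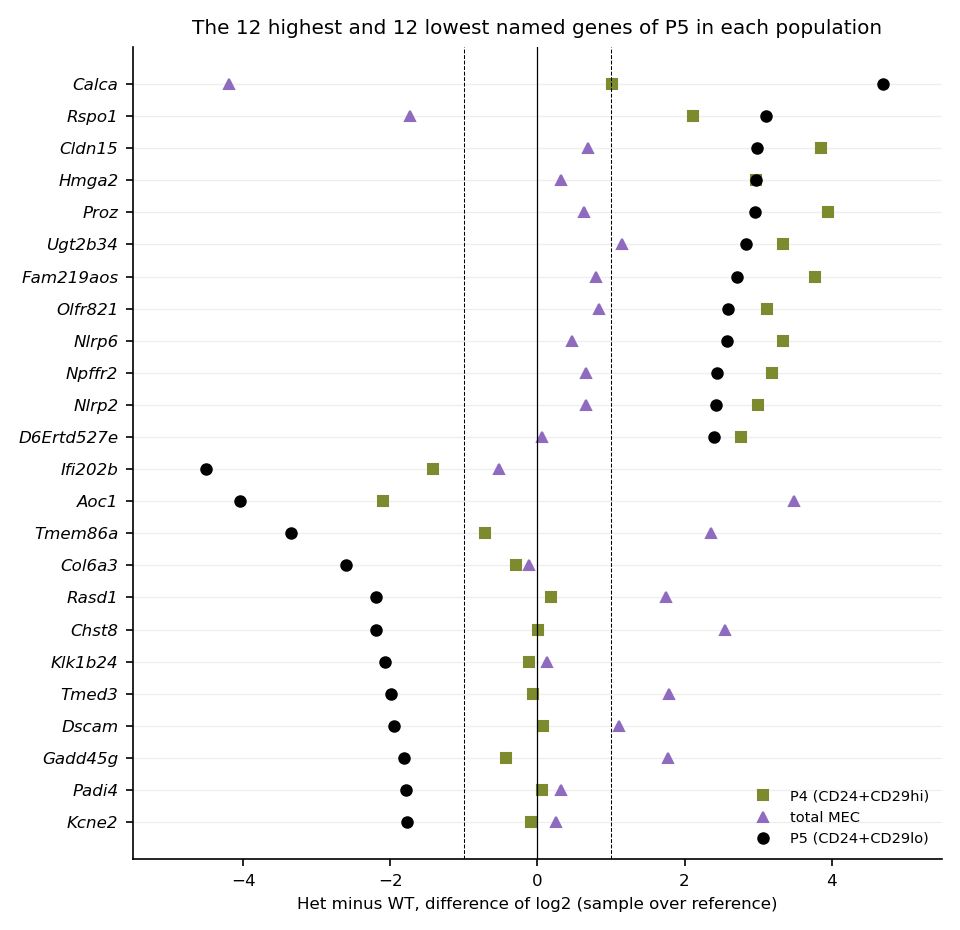
Het minus WT difference of log2 ratio for the 12 highest and 12 lowest named genes of P5 (black circles), with the same genes in P4 (green squares) and total MEC (purple triangles), 1 array per genotype and no error bars. The P4 squares of the 12 highest genes all lie above 1, whereas the MEC triangles of Calca and Rspo1 lie below -1 and those of Aoc1, Tmem86a, Rasd1, Chst8, Tmed3, Dscam and Gadd45g above 1.

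Many genes carry more than 1 probe, which gives a check within each gene. Of the higher genes, 202 had another probe well above background on both arrays. That probe had the same sign in 142 (70.3%), against 64.6% of the 7312 genes with such a probe. It was at least 2-fold higher in 12 (5.94%), against 1.11% of the 7312 genes. For the lower genes the other probe had the same sign in 36 of 40 (90.0%). It was at least 2-fold lower in 17 (42.5%), against 0.725% of the 7312 genes. Where both probes were of similar brightness, within 1 on the log2 level scale, the median difference was 1.22 by the brighter and 0.21 by the other probe for 61 higher genes, and -1.09 and -0.97 for 20 lower genes. Lower genes with at least 2-fold by both probes included F3, the tissue factor that starts coagulation (-1.70 and -1.33), Tgm2, a protein crosslinking enzyme (-1.67 and -1.33), and Padi4. Higher genes with both included Calca, Hmga2 and Fabp4, the fatty acid binding protein of fat and capillary cells (1.99 and 1.86). The share of other probes with the same sign was thus 90.0% on the lower and 70.3% on the higher side, a gap that was not tested.

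**Figure D3:**
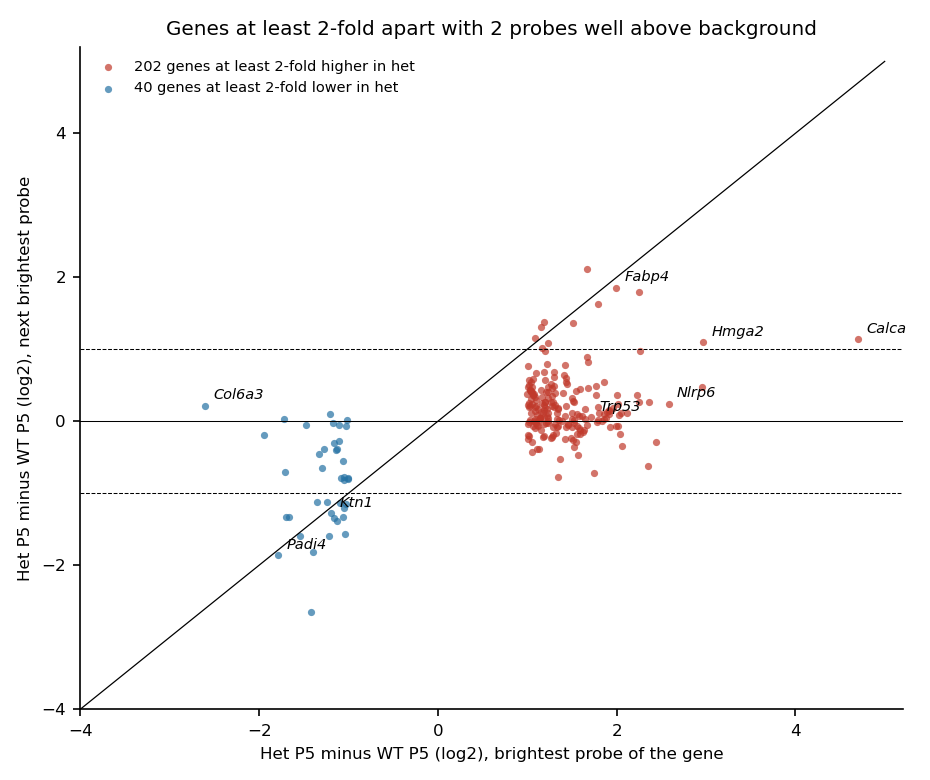
Het P5 minus WT P5 difference by the brightest probe (horizontal axis) and the next brightest probe (vertical axis) for the 202 genes at least 2-fold higher (red) and 40 genes at least 2-fold lower (blue) with 2 probes well above background. The diagonal marks equal differences and dashed lines the 2-fold limits; 12 red points lie above the upper line and 17 blue points below the lower line.

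The probes that read the higher and lower genes can be described by brightness, base content and place. With loess they were few among dim probes: in 5 equal groups of genes from the dimmest to the brightest, 1, 36, 120, 275 and 198 were at least 2-fold higher, and 4, 13, 34, 40 and 43 at least 2-fold lower. By the scanner software's log ratio, which adds no offset, the higher genes numbered 251, 161, 216, 259 and 172 and the lower genes 385, 127, 100, 63 and 53, so the counts by brightness differed between the processings. Median probe GC content was 45.0% for the higher genes, 41.7% for the lower genes and 41.7% for all. By chromosome, leaving out Y with its 3 measured genes, none of them 2-fold apart, the higher share ran from 1.69% on chromosome 16 to 3.24% on chromosome 5, and the lower share from 0.118% on X to 1.05% on chromosome 9.

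Luminal progenitor genes lay mostly on the higher side. Of 18 measured members 4 were at least 2-fold higher, where 2.59% of all genes were, and 1 of the 4 is Rspo1, described above. None was at least 2-fold lower, and the median difference was 0.52 against 0.07 over all genes. By the scanner software 2 were at least 2-fold higher and 2 lower (Cxcl1 -1.03 and Itga2 -1.18). The list's median less that of all genes ranged from 0.05 with median centring to 0.46 over the settings. Elf5, the ETS factor that drives alveolar differentiation, differed by 1.60 but by 1.02 with outlying backgrounds replaced and 0.88 by the scanner software. Kit, the stem cell factor receptor, was at 3.41 and 4.69 (1.29, or 0.71 and 0.83 under those settings), and Hey1, a Notch-induced repressor, at 1.48 and 2.95 (1.47, or 1.42 and 1.32). Of these 3 genes Hey1 was at least 2-fold higher under all these settings. At the other end, the chemokine gene Cxcl1 was at 3.11 and 2.17 (-0.94), and among the lower genes outside the list were the related Cxcl5 (-1.63) and Cxcl2 (-1.38), both named after their values were seen.

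Hormone-sensing genes other than Calca lay on both sides of 0. In this list of 20, Calca included, 8 members were above 0, where 61.2% of all measured genes were. Among the 8 were Cited4 (0.95) and the prolactin receptor gene Prlr (0.52). Pgr and Ly6a were at least 2-fold lower, where 0.551% of all genes were. The median difference of the 20 was -0.06, or -0.34 to -0.12 less that of all genes over the settings. Pgr, the progesterone receptor, was at 2.77 and 1.37 (-1.40); this came to -2.17 with outlying backgrounds replaced and -0.08 by the scanner software. Prom1, a surface protein of hormone-sensing cells, was at 5.38 and 4.39 (-0.98) by its brightest probe and differed by 0.98 by the scanner software, and its other probe by -1.02. Ly6a, the Sca-1 antigen, was at 2.48 and 1.36 (-1.12, or -1.14 and -1.16 under those settings), and Esr1 differed by -0.55. Ly6a was thus at least 2-fold lower under each of these settings, and Pgr was not.

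General luminal genes were split, with 9 of 18 members above 0 and 9 below and a median of -0.06. Over the settings 2 to 10 were above 0, and the median ranged from -0.79, with median centring, to 0.10. Less that of all genes the median was -0.57 to -0.01. With median centring 8 members were at least 2-fold lower. Cd24a, the gene of the sorting antigen CD24, was at 4.68 in WT P5 and 3.20 in het P5, a difference of -1.48. Itgb1, the gene of the other sorting antigen CD29, was at 0.17 and -0.32. The keratin genes Krt8 and Krt18 differed by -0.74 and -0.62, and the claudin genes Cldn4 and Cldn3 by 0.89 and 0.81. In the milk and alveolar list of 17 measured members, Elf5 and the mucin gene Muc15 (1.44, or 0.79 with outlying backgrounds replaced) were at least 2-fold higher, and the major milk protein genes Csn2 (-0.24) and Csn3 (0.31, or -0.44 with outlying backgrounds replaced) were not.

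Basal and myoepithelial genes were nearly all higher in het P5. Of 20 members 19 were above 0, as were 61.2% of all measured genes, with a median of 0.69, and Krt17 (1.14), Myl9 (1.14) and Krt5 (1.13) were at least 2-fold higher; by the scanner software Krt17 and Krt5 came to 0.96 each, and with median centring 0 members were at least 2-fold apart. Krt5, the keratin of basal cells, was at 1.49 and 2.62, and its partner Krt14 at 2.22 and 3.02, while Acta2 differed by 0.63. The summed Cy5 signal of the list was 21406 in WT P5 and 19443 in het P5, with no scaling for the brighter WT array. Under the other settings the list's median ranged from 0.03, with median centring, to 0.73, and 12 to 20 members were above 0; less the median of all genes it was 0.25 to 0.65. In bulk RNA a greater share of basal cells and more basal RNA per cell cannot be told apart. Some members had low ratios (Myl9 at -3.18 and -2.04), and the part of low ratios or of scaling in these differences was not tested.

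Genes with a known link to p63 had a median of 0.00. Of 20 measured members of that list 10 were above 0, and Krt5 was at least 2-fold higher. With outlying backgrounds replaced 6 were above 0 and the median was -0.12, by the scanner software the median was -0.14 with none 2-fold apart, and with median centring it was -0.54 with 4 at least 2-fold lower. Klf4 and Perp, an epithelial transcription factor and a desmosomal membrane protein, differed by -0.53 and -0.40, and Tfap2c, another epithelial transcription factor, by 0.20. Hemidesmosome and basement membrane genes had a median of -0.09. Within that list the basement membrane linker Nid1 differed by 1.16, the hemidesmosome plakin Dst by -0.97 (-1.02 with outlying backgrounds replaced) and the integrin subunit genes Itga6 and Itgb4 by -0.71 and -0.47.

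The p53 relatives of p63 were higher by their brightest probe. Trp53 was at 0.98 and 2.69 (1.72), but its other probe was at -0.42 and -0.36 (0.06). Trp73 was at 0.88 and 2.25 (1.37), and its other probe, not well above background in het P5, differed by -0.37. Both were also higher in P4, by 2.48 and 1.98. Of the 15 p53 targets and regulators on the list besides the family itself, none was at least 2-fold apart. Their differences ran from 0.72 (Phlda3) to -0.73 (Gadd45a, a relative of Gadd45g), with Cdkn1a at -0.08 and Mdm2 at -0.32. Of all genes 2.59% were at least 2-fold higher and 0.551% lower, so this count does not set the 15 apart.

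Few Wnt genes beyond Rspo1 were 2-fold apart, but so were few of all measured genes (2.59% at least 2-fold higher and 0.551% lower). Counts this small do not set the Wnt lists apart from all genes. Among 18 measured Wnt ligand genes Wnt11 was at least 2-fold lower, at 2.43 and 1.29 (-1.15), Wnt5a was at 1.62 and 1.03 (-0.59, or -1.06 with outlying backgrounds replaced), and Wnt4, the progesterone-induced ligand of hormone-sensing cells, at 2.50 and 2.56 (0.06). Of the 16 receptors none was 2-fold apart with loess by its brightest probe, but Fzd10, at 4.93 and 4.09 (-0.84), came to -1.12 with outlying backgrounds replaced, and its other probe came to -1.35 under that setting. By the scanner software the brighter probe differed by -0.43. Lrp5 was at 1.18 and 0.48 (-0.70) and Fzd7, a basal-enriched Frizzled, at 0.29 and 0.33 (0.03). Of 19 feedback and target genes none was 2-fold apart with loess, the largest differences being those of the Wnt inhibitors Apcdd1 (0.79) and Sfrp2 (0.70), and Tnfrsf19 (0.59) came to 1.13 by the scanner software. The members of the Wnt feedback list had a median of 0.15.

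In the Notch pathway 3 of 20 members were at least 2-fold higher and none lower, where 2.59% and 0.551% of all genes were. The median was 0.33 (0.13 to 0.33 less that of all genes over the settings). The 3 higher members were Hey1, the fringe glycosyltransferase gene Rfng (-0.07 and 1.20, difference 1.27) and the ligand gene Dll4 (0.45 and 1.56, difference 1.11). The receptors Notch1, Notch2 and Notch3 differed by 0.05, -0.02 and -0.03, and Hes1, a general Notch target, by 0.31. With outlying backgrounds replaced Dll4 came to 0.96.

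Other peptide and receptor genes of the calcitonin family were also listed, not all of them for the peptides of Calca. Among the 10 calcitonin family members Ramp2, a receptor partner, was at 0.62 and 1.88 (1.26), and Adm, the related peptide adrenomedullin, at 0.21 and -0.92 (-1.13). Calcrl, the receptor of calcitonin gene-related peptide and adrenomedullin, differed by 0.58 and Calcr, the calcitonin receptor, by -0.01. Calcb, the gene of the beta peptide, was near the reference on both arrays (0.08 and 0.26, difference 0.18, or 1.30 by the scanner software).

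Cell cycle genes had all 24 members above 0, where 61.2% of all measured genes were, with a median of 0.57. The mitotic genes Cdc20 (-3.01 and -1.84, difference 1.17) and Birc5 (-3.33 and -2.28, difference 1.05) were at least 2-fold higher, Mki67 was at -3.61 and -2.76, and Pcna at -1.14 and -0.95. These genes lay far below the dividing cell lines of the reference on both arrays, and the genes of such low ratio shared the direction. Of 122 genes with a mean P5 ratio below -3, 120 had a positive difference, with a median of 0.49, and of 480 genes between -3 and -2, 414 did, with a median of 0.34. With median centring the list's median was -0.20, which is 0.01 above that of all genes, and 4 members were above 0. None of the 7 CDK inhibitors was 2-fold apart, from -0.08 (Cdkn1a) to 0.60 (Cdkn1c), where 2.59% of all genes were higher and 0.551% lower.

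Fibroblast genes had the same direction. All 15 were above 0, as were 61.2% of all measured genes. The median was 0.65 (0.33 to 1.15 less that of all genes over the settings). At least 2-fold higher were 6, where 2.59% of all genes were. Postn, a matricellular protein, was at -0.53 and 1.43 (1.96), the proteoglycan gene Lum at -0.09 and 1.56 (1.64), and Col3a1 and Col1a1, fibrillar collagens, at -3.67 and -2.12 (1.55) and at -4.66 and -3.39 (1.27). The next brightest probe, dimmer in each case, differed by 0.18 for Postn, 0.42 for Col3a1 and 0.27 for Col1a1. Taking the mean over all probes of a gene, 3 members of the list were at least 2-fold higher. Pdgfra, a defining receptor of fibroblasts, was at -4.22 and -3.76 (0.46). The summed Cy5 signal of the list was 11716 in WT P5 and 12980 in het P5, and in MEC the list's median went the other way (-0.80). The part of such cells or of the low ratios in these differences was not tested.

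Endothelial genes were higher too, with all 14 above 0, where 61.2% of all measured genes were. The median was 0.70 (0.35 to 0.75 less that of all genes over the settings). Robo4, a vascular guidance receptor, was at 0.85 and 2.30 (1.45), Sox17 at 0.48 and 1.65 (1.16, or 0.91 with outlying backgrounds replaced) and Flt1 at -1.42 and -0.38 (1.03). Other probes well above background on both arrays differed by 0.33 and 0.05 for Sox17 and by 0.43, 0.03 and 0.05 for Flt1. Taking the mean over all probes of a gene, 1 member of the list was at least 2-fold higher. The defining genes Pecam1 and Cdh5 differed by 0.19 and 0.89, and the summed signal was 4876 in WT P5 and 4257 in het P5. Among 12 adipocyte genes Fabp4 (4.13 and 6.12, difference 1.99) and Lpl (1.42) were at least 2-fold higher, while the fat cell genes Adipoq and Plin1 were near the reference on both arrays and differed by 0.01 and -0.06. None of the 18 immune cell, 8 erythroid, 10 muscle and 10 Schwann and nerve genes was 2-fold apart with loess, with medians of 0.22, 0.03, 0.19 and 0.15. Of all genes 2.59% were at least 2-fold higher and 0.551% lower, so lists this short could hold none by that share alone.

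Immune and stress genes differed in single members. C3, the central complement component, was at -2.34 and -0.09 (2.25), with its other, less bright probe at -0.12 and 0.15. Of the interferon response genes Cxcl10 was at -0.83 and 0.47 (1.30), and the list of 20 had a median of 0.23, beside the much lower Ifi202b, which is not on it. The class II antigen presentation genes Cd74 and H2-Eb1 differed by 1.17 and 1.07 (1.16 and 0.98 with outlying backgrounds replaced), and the class I genes H2-K1 and H2-D1 by -0.55 and -0.53. Among the immediate-early genes Egr2 (1.37) and Nr4a1 (1.16) were at least 2-fold higher, and Fos and Egr1 differed by -0.19 and -0.12. Over the 13 antigen presentation genes the median was -0.02.

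**Figure D4:**
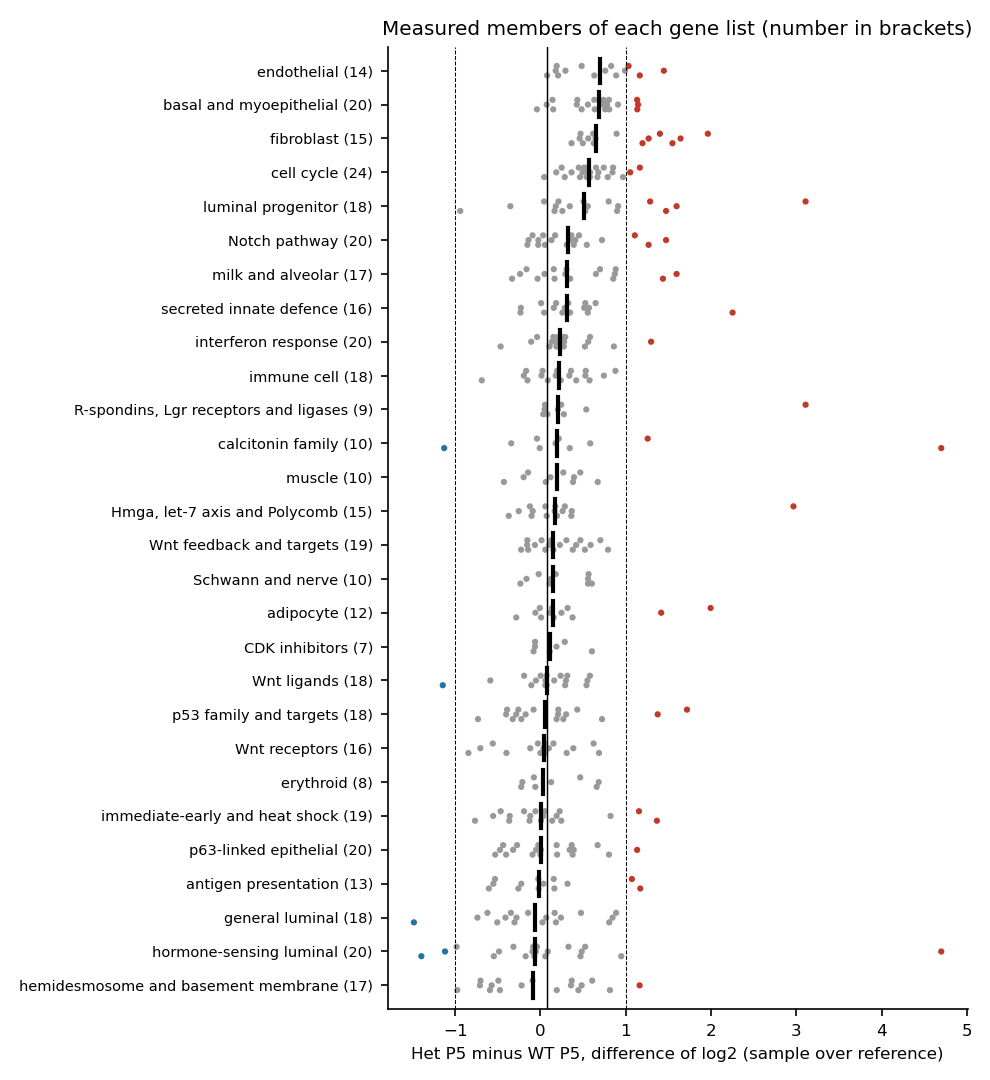
Het P5 minus WT P5 difference of every measured member of the 28 gene lists, with list medians as thick bars, the median of all genes (0.07) as a solid line and the 2-fold limits dashed; red and blue points are at least 2-fold higher or lower. The endothelial, basal, fibroblast, cell cycle and luminal progenitor lists have the highest medians (0.70 to 0.52), and the lone points at the right are Calca, Rspo1 and Hmga2.

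For 1296 genes the probe was well above background on 1 of the 2 P5 arrays. Where a difference could be computed it enters the counts above. A bound was also set if no probe of the gene was well above background on the dim array. That held for 277 genes seen in het P5 and 991 seen in WT P5. Each bound sets the level of the measured array against the dim array's own signal or its lowest well-measured signal, whichever is higher, and is open to dye bias because no dyes were swapped. Csta1, a cystatin of cornified epithelia, was at least 2.29-fold higher in het P5, and it was the sole gene whose bound reached 2-fold. With gene models passed over, the next were Fam229a (at least 1.87-fold) and Epha10 (at least 1.62-fold). On the lower side no bound reached 2-fold, the largest being 1.89-fold, and with gene models passed over the largest were those of Itpripl2 (at least 1.55-fold) and Tmem71 (at least 1.42-fold).

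**Figure D5:**
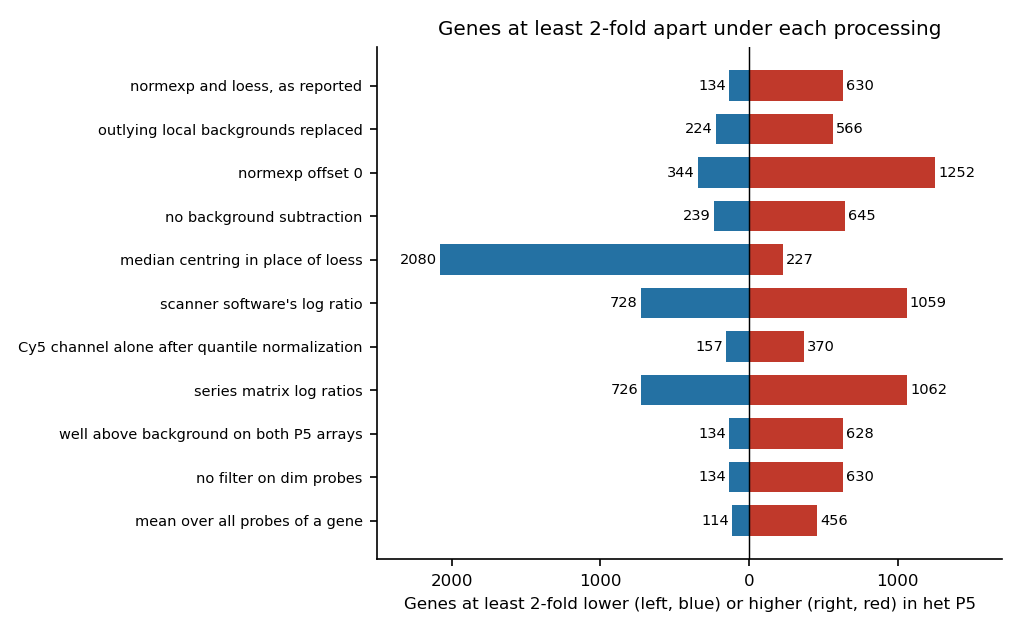
Number of genes at least 2-fold higher (red, right) and at least 2-fold lower (blue, left) in het P5 under the reported processing (630 and 134) and each of 10 alternatives. Median centring in place of loess is the setting with more lower (2080) than higher (227) genes.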

How the data were processed

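RNA of both P5 samples (Cy5) was hybridised with reference RNA (Cy3) to Agilent 2-colour arrays of 45018 spots, 1639 of them controls. Per the submitters' processing notes, the authors used Agilent Feature Extraction 9.5.3.1. The deposited files hold the raw intensity and local background of each spot, and, per the file headers, the scanner software's own log10 ratio (Cy5 over Cy3), already background-subtracted and dye-normalized. Log2 ratios are deposited in the series table and followed that ratio (r = 0.996 to 0.999 for the P5 arrays, column medians 0.05 and 0.10), so its direction is sample over reference, while its scaling is not given in the sources used here.

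Intensities were corrected with normexp (offset 50) and loess within each array in R 4.3.3 with limma 3.58.1, spots of a probe were averaged, and each gene was represented by its brightest probe. Spots marked as outliers, 74 and 135, were left out. Of 41174 probes, 23075 were named by RefSeq accession, 6582 by symbol and 3077 by synonym. The script was tested on simulated data. Named genes are the 12 highest and 12 lowest that were well above background on both arrays and at least 2-fold apart under 3 processings, gene models passed over, the 5 largest bounds in each direction, Trp63, Fzd7, Calca, Rspo1 and Hmga2, and up to 4 members of each of 28 lists, with further members to describe a list. Members, lists and tests were chosen with earlier results of these data known. Precision is limited by having 1 array a group.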

Additional observations from a re-analysis of the deposited data

Results flagged for a closer look

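For 9 of the 24 named genes the het minus WT difference was at least 2-fold in P5 and at least 2-fold the other way in MEC. Each rests on 1 array a group, and the difference between populations was not tested. The P5 difference less the MEC difference was 8.90 for Calca and 4.84 for Rspo1, both higher in het P5 and lower in het MEC. It was -7.54 for Aoc1, -5.70 for Tmem86a, -4.74 for Chst8, -3.94 for Rasd1, -3.78 for Tmed3, -3.59 for Gadd45g and -3.06 for Dscam, all 7 lower in het P5 and higher in het MEC. For Rasd1 the MEC difference of 1.75 came to 0.93 with outlying backgrounds replaced and 0.81 by the scanner software, below 2-fold. P4 and P5 lay on slide 1 and MEC on slide 2.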

How the results depend on the processing

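The counts of 630 higher and 134 lower genes moved by over 1.5 times under several alternatives. Higher genes numbered 1252 with normexp offset 0, 227 with median centring, 1059 by the scanner software's log ratio, 1062 by the series table and 370 from Cy5 alone. Lower genes numbered 224 with outlying backgrounds replaced, 344 with offset 0, 239 without background subtraction, 2080 with median centring, 728 by the scanner software and 726 by the series table. Of the 630 higher genes, 527 were still 2-fold higher with outlying backgrounds replaced, 180 with median centring and 356 from Cy5 alone; of the 134 lower genes 133, 130 and 104 were still 2-fold lower. The median of all genes was 0.11 with offset 0 and -0.22 with median centring. Taking the mean over all probes of a gene gave 456 and 114. All 24 named genes kept their direction under the 10 alternatives and 23 stayed at least 2-fold apart; Col6a3 came to -0.76 as the mean of its probes. No paired analysis was possible because each group has 1 array, and for the same reason no replicate could be left out. Among the dimmest of 5 equal groups of genes, 1 was at least 2-fold higher and 4 lower as reported, against 251 and 385 by the scanner software.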
